A study of Mus musculus with 12 samples.

Results

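The genes described here encode the machinery that licenses origins and copies DNA in S phase. The set has 41 genes of the 55416 in the deposited count table, taken from a named list and matched by symbol: the 6 subunits of the MCM helicase core, 10 genes of origin recognition, loading and helicase activation, 5 of the sliding clamp and its loader, 6 of the polymerases and primase, 4 of deoxynucleotide synthesis, 4 cyclin E and activator E2F genes, and 6 of lagging strand processing, single-strand binding and chromatin assembly. All 41 passed the filter on low counts and were tested. The lowest of them was Gins1, at 4.53 CPM (edgeR's counts scaled to the normalised library size) in its weakest library.

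RNA sequencing was done on 12 libraries of C2C12, an established line of mouse skeletal muscle myoblasts that fuse into myotubes when serum is lowered. Wild-type (WT) cells and cells labelled Mapk14 knockout (KO, Mapk14-/-) were kept for 5 days in 1 of 2 media: growth medium (GM), with 10% fetal bovine serum, and differentiation medium (DM), with 2% horse serum. Each of the 4 groups had 3 libraries labelled as biological replicates, and all 12 carried a single batch date. The sources used here do not give the number of knockout clones or the editing method, so a difference between KO and WT and a difference between the particular cells grown under those labels cannot be told apart.

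Libraries held 8821669 to 11536396 counts. Mapk14, which encodes the kinase p38 alpha, did not fall under the KO label: 124 ± 14 CPM (SD, n = 3) in WT GM, 134 ± 3.58 in KO GM, 91.3 ± 2.59 in WT DM and 89.5 ± 4.67 in KO DM. The log2 fold change of KO against WT was 0.11 ± 0.08 (SE) in GM (edgeR, adjusted p = 0.35) and -0.03 ± 0.08 in DM (adjusted p = 0.822). A total RNA count does not show whether an edited transcript is functional, and every direction below is that of the libraries labelled KO. The myoblast genes Myod1 and Des were present in all groups, at 128 and 915 CPM in WT GM and at 65.0 and 122 CPM in KO GM. Of 6 macrophage and leukocyte markers, Ptprc, Adgre1 and Tyrobp had no count in any library, Itgam had 3 counts in all, Cd68 was at 1.2 to 2.86 CPM and Csf1r at 8.09 to 9.52 CPM as group means, and the list summed to 7.8 to 12.5 CPM. The epithelial genes Epcam and Cldn4 had no count in any library, and the 5 endothelial markers summed to at most 0.798 CPM. The epithelial keratin Krt14 stood at 1.14 ± 0.532 CPM in WT GM and 13.8 ± 0.52 CPM in KO DM.

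Before S phase, the origin recognition complex, CDC6 and CDT1 place pairs of MCM helicase rings on the DNA, which is called licensing. In S phase, CDC45 and the GINS complex bind the ring and switch it on, primase and DNA polymerase alpha lay down primers, and the PCNA clamp, placed by the RFC loader, tethers polymerases delta and epsilon. Cyclin E and the E2F activators drive this programme, and many of its genes are known E2F targets. Myoblasts are known to leave the cell cycle when they differentiate into myotubes, and p38 alpha is known to promote that differentiation.

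The promoters of 5 members are shown because the results turn on these genes: Mcm5, Cdc6 and Gins3 were high in the KO GM libraries, Mcm6 had the highest level per length of the MCM genes, and Tk1 had the largest response to DM. Each run is the 250 bases upstream of the RefSeq start, 5′ to 3′ on the gene's strand, in the build GRCm38.p6. Capitals mark a match to an E2F word (TTTCCCGC, TTTCGCGC, TTTGCCGC or TTTGGCGC, the words of the pattern known for E2F binding, on either strand), and overlapping words run together. The windows are Mcm5 at chr8:75109259-75109508 on the plus strand, Mcm6 at chr1:128359706-128359955 on the minus strand, Cdc6 at chr11:98907901-98908150 on the plus strand, Gins3 at chr8:95633309-95633558 on the plus strand and Tk1 at chr11:117826015-117826264 on the minus strand.
Mcm5: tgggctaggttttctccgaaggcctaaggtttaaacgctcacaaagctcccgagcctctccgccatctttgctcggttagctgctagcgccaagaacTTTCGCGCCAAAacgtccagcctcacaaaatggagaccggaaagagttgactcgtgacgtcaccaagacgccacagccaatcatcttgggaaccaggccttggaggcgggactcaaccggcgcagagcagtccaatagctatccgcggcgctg
Mcm6: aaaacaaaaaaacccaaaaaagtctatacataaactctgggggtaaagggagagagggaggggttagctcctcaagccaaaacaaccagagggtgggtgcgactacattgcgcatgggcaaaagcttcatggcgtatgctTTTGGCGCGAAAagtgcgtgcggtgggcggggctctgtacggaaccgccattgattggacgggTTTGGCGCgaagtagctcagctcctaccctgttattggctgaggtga
Cdc6: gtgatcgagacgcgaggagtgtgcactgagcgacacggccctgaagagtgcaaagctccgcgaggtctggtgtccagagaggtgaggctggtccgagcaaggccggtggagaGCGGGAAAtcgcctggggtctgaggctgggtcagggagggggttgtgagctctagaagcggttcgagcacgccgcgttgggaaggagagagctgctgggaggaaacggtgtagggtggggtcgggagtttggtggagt
Gins3: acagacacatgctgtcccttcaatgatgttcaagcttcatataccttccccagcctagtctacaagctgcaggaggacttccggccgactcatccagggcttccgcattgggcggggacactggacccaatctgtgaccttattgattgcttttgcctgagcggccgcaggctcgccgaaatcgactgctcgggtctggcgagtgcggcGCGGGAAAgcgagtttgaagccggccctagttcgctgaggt
Tk1: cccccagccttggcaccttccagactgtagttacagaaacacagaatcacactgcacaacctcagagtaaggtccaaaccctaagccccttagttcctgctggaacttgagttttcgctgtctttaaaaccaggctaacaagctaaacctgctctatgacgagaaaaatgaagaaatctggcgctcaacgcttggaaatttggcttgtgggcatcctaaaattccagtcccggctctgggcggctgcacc

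Counted from the start site, the Mcm5 words lay at -153 to -146 on the gene's strand and at -149 to -142 on the opposite strand, overlapping each other. Mcm6 had words from -110 to -103, -106 to -99 and -47 to -40, of which the middle one was on the opposite strand. Cdc6 had a single word from -138 to -131 and Gins3 a single word from -41 to -34, both on the opposite strand. The Tk1 window held none of the words in these letters. RefSeq promoters were matched for 34 of the 41 members, over a window of 300 bases that adds 50 bases after the start, and 15 of the 34 (44.1%) held an E2F word. The same words were in 4.75% of 9866 tested genes with a promoter and in 2.26% of all 32851 promoters. A shorter form without the leading T was in 67.6% of the members and 19.5% of the tested genes. CCAAT, the word of the factor NF-Y, was in 58.8% of the members and 43.5% of the tested genes. TTTGAA, known from promoters of mitosis genes, was in 14.7% and 14.3%. A match is a run of letters and not a measured binding site. The windows follow RefSeq starts, which need not be the main promoter, and the starts used by these cells were not measured. The window of E2f1, counted as having no E2F word, may lie in coding sequence.

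In WT cells 39 of the 41 genes rose from GM to DM and none fell, where 18.4% of all 13250 tested genes were called higher and 14.8% lower (edgeR quasi-likelihood test, Benjamini-Hochberg adjusted p below 0.05). The median log2 fold change of the members was 0.78, with a range of 0.18 to 1.44, and that of all tested genes was -0.01. Orc1 and Pole2 were the members not called. In 40 of the 41 the 3 DM libraries all lay above the 3 GM libraries, as they did for 23.7% of all tested genes. The summed level of the members was 1847, 1810 and 2094 CPM in the WT GM libraries and 3277, 3265 and 3138 CPM in WT DM. Serum was lower in DM, and the genes of this set were higher there. RNA from a whole culture was measured. A change in the share of cells in S phase and a change in these transcripts per cell therefore cannot be told apart, in this or any other comparison below.

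In growth medium the KO libraries held most of these transcripts at a higher level than the WT libraries. Of the 41 members 31 rose in KO GM against WT GM and none fell, where 10.0% of all tested genes were called higher and 10.6% lower. The median log2 fold change was 0.57, against -0.00 for all tested genes. In 35 members the groups did not overlap with KO higher, as in 15.8% of all tested genes. Summed levels in KO GM were 3021, 2807 and 2564 CPM. The 10 members not called were Gins1, Gins2, Orc1, Rfc2, Rfc4, Pola2, Pole2, Rrm1, Rrm2 and E2f2, and all 31 that rose in KO GM were also among the 39 that rose in WT DM. These comparisons share the WT GM libraries.

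Switching KO cells to DM gave a mixed result. There, 12 members rose and 2 fell, where 20.8% of tested genes were called higher and 19.8% lower. The share of members called higher (29.3%) was not far above that background, and the share called lower (4.88%) was well below it. Estimates were above 0 for 29 of the 41, and the median log2 fold change was 0.16. Gins2, Rfc3, Rfc5, Pole, Rrm1, Rrm2, Tyms, Tk1, Ccne1, E2f2, Chaf1b and Lig1 rose, and Mcm3 and Cdc6 fell. The 3 libraries of each group did not overlap in 17 members with DM higher and in 2 with DM lower, where 25.6% and 25.1% of all tested genes did so. The counts rested on single libraries: 7 members rose without KO GM replicate 3, and none fell without KO GM replicate 1, KO GM replicate 2 or KO DM replicate 3. Summed levels in KO DM were 3173, 3121 and 2932 CPM.

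The response to DM itself differed between the genotypes for most of the set. The interaction, which is the KO response minus the WT response on the log2 scale, was called lower for 26 members and higher for none, where 5.25% of tested genes were called lower and 3.61% higher. All 41 estimates were below 0, with a median of -0.64 and a range of -1.29 to -0.03. Of the 26, 24 had also risen in KO GM against WT GM, and Rrm1 and E2f2 had not. The interaction is also the KO against WT difference in DM minus that in GM. The members' medians of these differences were -0.08 in DM and 0.57 in GM. A rise in KO GM against WT GM thus lowers the interaction, so this overlap is not independent agreement. WT GM was the group with the lowest mean for 39 of the 41 genes, and KO GM for Rrm2 and E2f2. The group with the highest mean was WT DM for 23 genes, KO DM for 12 and KO GM for 6.

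**Figure D1:**
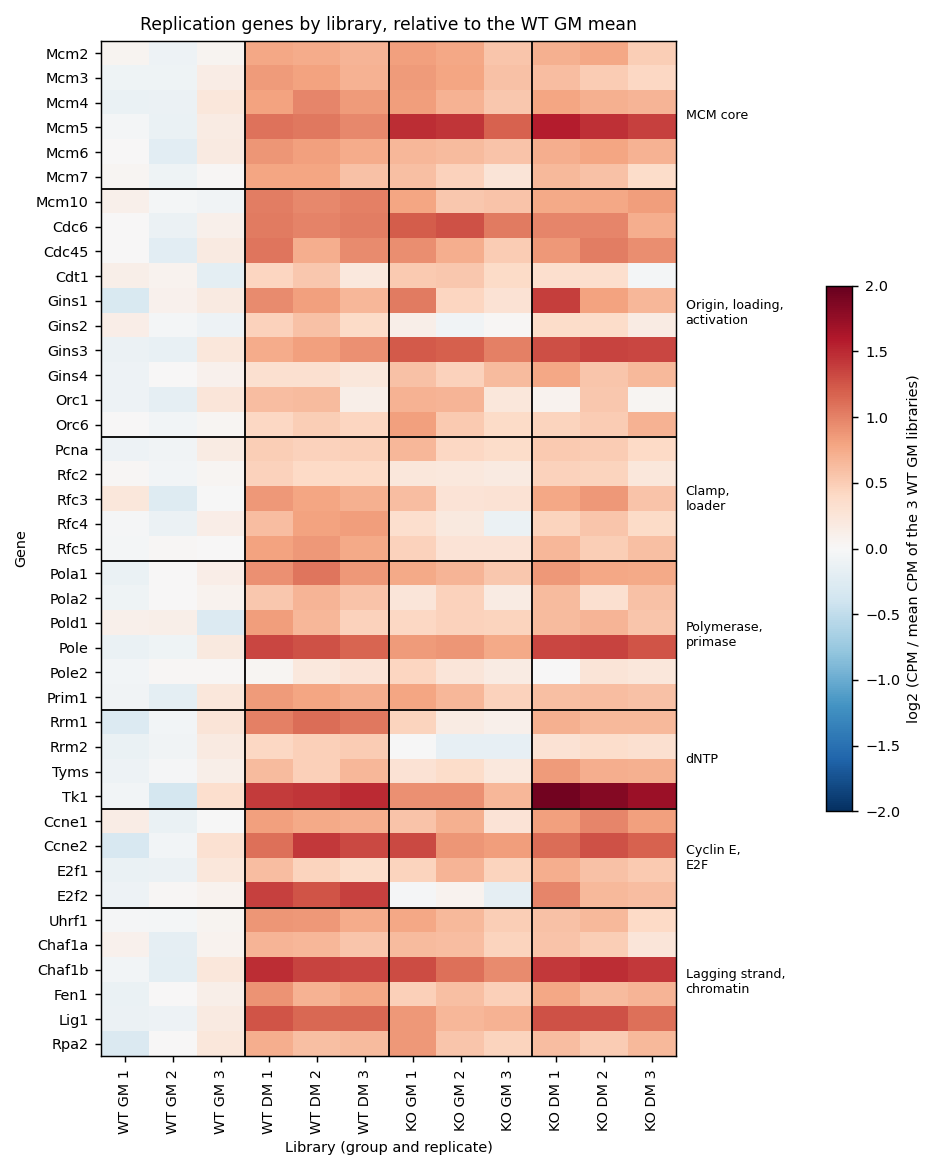
Heat map of the 41 genes (rows, grouped by role) in the 12 libraries (columns, 3 per group), coloured by log2 of the CPM divided by the mean CPM of the 3 WT GM libraries. Most rows are near 0 in WT GM and red in the other 3 groups. Rrm2, E2f2 and Gins2 are among the rows that stay near 0 in KO GM.

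**Figure D2:**
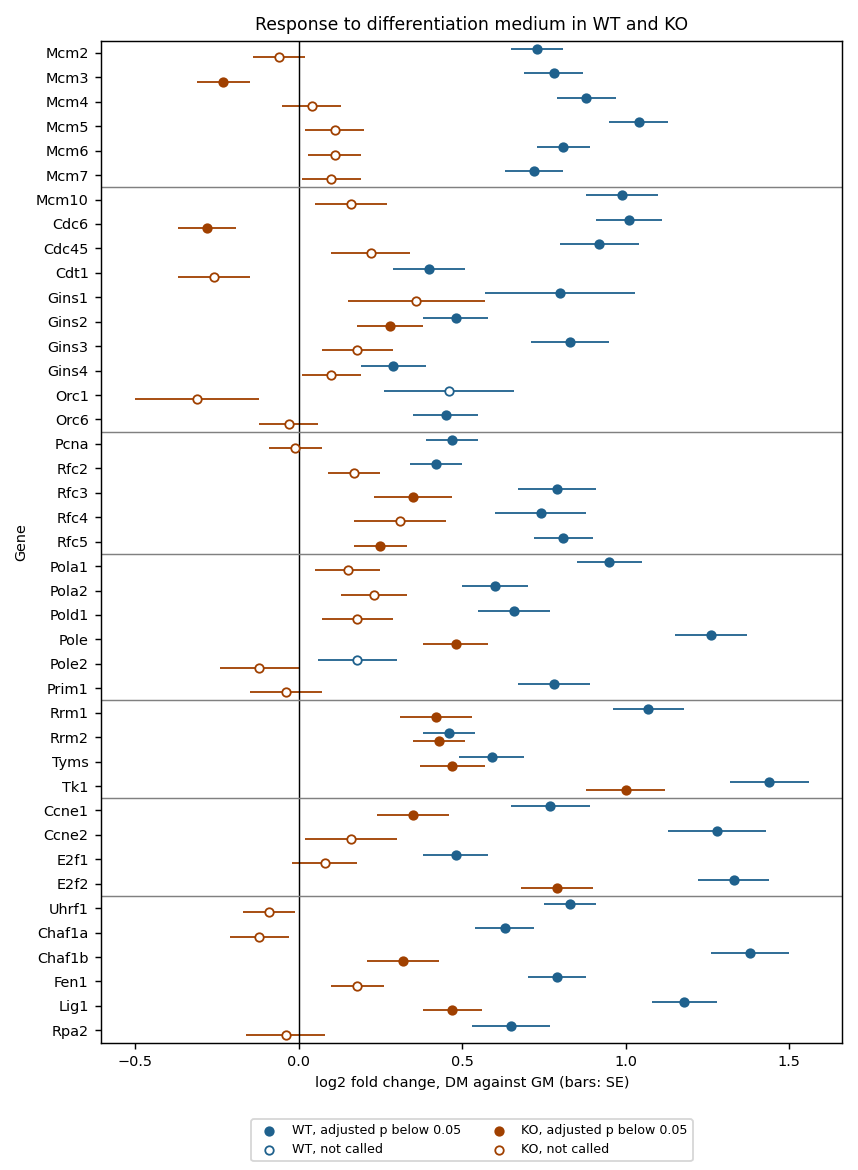
Log2 fold change of DM against GM (x axis, bars are SE) for each gene (y axis, grouped by role) in WT libraries (blue) and KO libraries (brown), with filled points called at an adjusted p below 0.05. All 41 WT points lie to the right of the KO points of the same gene, by 0.03 for Rrm2 and by 1.29 for Cdc6.

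The 6 subunits of the MCM ring, the motor that unwinds DNA at the fork, rose in WT DM and in KO GM, all 6 each time. Mcm2 stood at 99.2, 89.1 and 99.1 CPM in WT GM, at 164, 160 and 154 in WT DM, at 170, 164 and 141 in KO GM and at 157, 163 and 135 in KO DM. Mcm3 was at 83.7, 83.4 and 98.1 CPM in WT GM, 160, 154 and 143 in WT DM, 160, 153 and 132 in KO GM and 135, 126 and 118 in KO DM. In both genes every WT GM library lay below every library of the other 3 groups. Mcm4 read 72.6, 73.5 and 93.7 CPM in WT GM, 140, 158 and 144 in WT DM, 142, 129 and 116 in KO GM and 138, 131 and 128 in KO DM. For Mcm5 the values were 70.7, 66.2 and 81.3 CPM in WT GM, 155, 151 and 142 in WT DM, 202, 196 and 164 in KO GM and 217, 200 and 188 in KO DM. Mcm5 alone among the 6 had every KO library above every WT library of either medium.

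Mcm6 read 130, 112 and 146 CPM in WT GM, 238, 228 and 215 in WT DM, 205, 201 and 191 in KO GM and 213, 223 and 210 in KO DM. Mcm7 read 100, 91.1 and 99.0 CPM in WT GM, 167, 168 and 146 in WT DM, 147, 134 and 116 in KO GM and 152, 146 and 125 in KO DM. WT GM was again the low group in both, without overlap. In WT the response to DM ran from 0.72 ± 0.09 for Mcm7 (log2 fold change ± SE, adjusted p = 1.91e-06) to 1.04 ± 0.09 for Mcm5 (adjusted p = 6.96e-09). The rise in KO GM against WT GM was 1.36 ± 0.09 for Mcm5 (adjusted p = 1.96e-10), the largest of all 41 members, and 0.45 to 0.75 for the other 5. In KO cells the response to DM was -0.23 ± 0.08 for Mcm3 (adjusted p = 0.0314) and between -0.06 and 0.11 for the other 5, which were not called. The Mcm3 call had adjusted p values of 0.000986 to 0.151 over the alternatives and was lost in 6 of 19: DESeq2, and leaving out WT DM replicate 3, KO GM replicate 1 or 2, or KO DM replicate 2 or 3. The interaction was called for all 6, from -0.63 ± 0.13 for Mcm7 to -1.02 ± 0.12 for Mcm3 (adjusted p = 1.54e-05).

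The MCM ring holds each subunit once, so their levels per length were compared, using the main annotated transcript of each gene (2910 to 3589 bases). Mcm6 was highest in every group, at 44.3 ± 5.86 CPM per kilobase in WT GM and 68.4 ± 2.51 in KO GM (SD, n = 3). Mcm5 and Mcm4 were lowest in WT GM, at 21.5 ± 2.3 and 22.3 ± 3.33 CPM per kilobase, and did not differ beyond their spread. In KO GM, Mcm5 was second, at 55.5 ± 5.95 CPM per kilobase, followed by Mcm3 at 49.0 ± 4.8, Mcm2 at 46.9 ± 4.51 and Mcm7 at 44.6 ± 5.29, which lay within each other's spread. In KO DM, Mcm5 was again second, at 59.7 ± 4.35 CPM per kilobase, and Mcm4 was lowest, at 36.9 ± 1.36. Which transcripts these cells use was not measured.

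**Figure D3:**
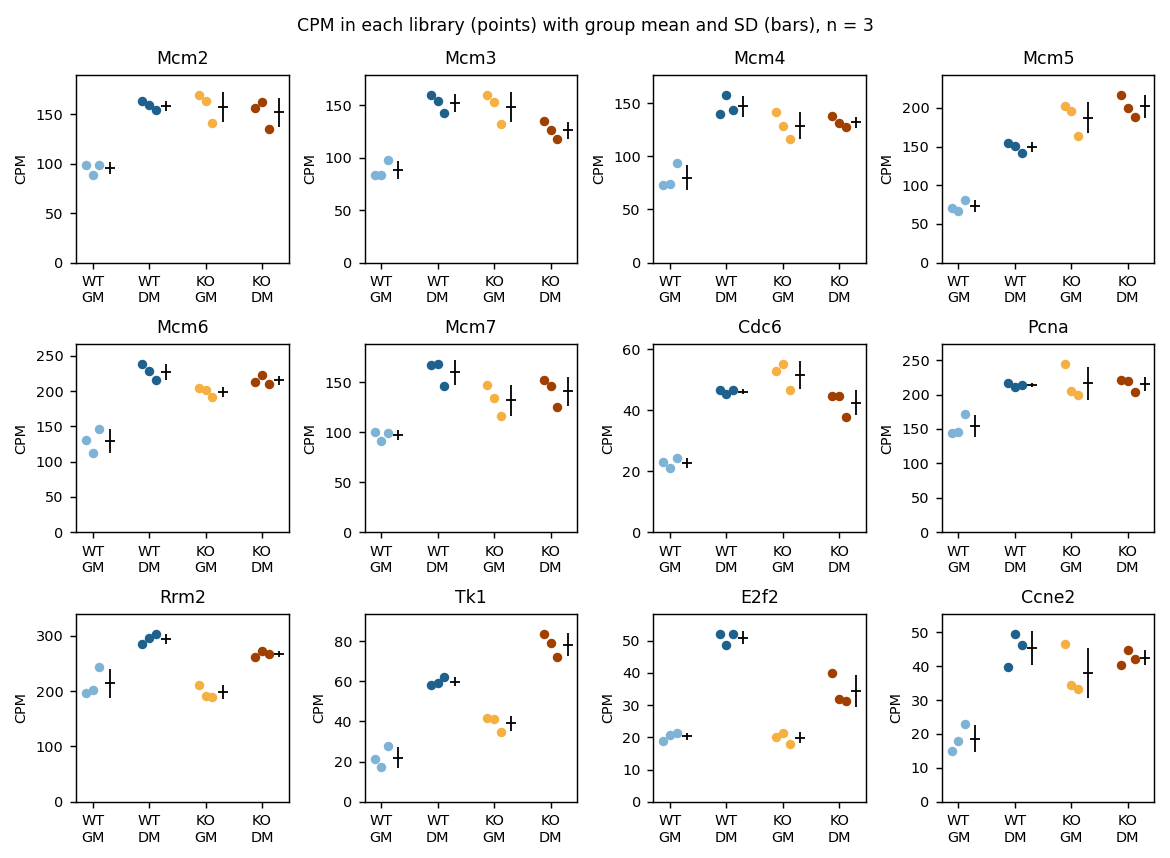
CPM (y axis) of 12 members in each library (points), with the group mean and SD (bars, n = 3), by group (x axis). The KO GM means of Mcm5 and Cdc6 are above their WT DM means; E2f2 and Rrm2 are low in both GM groups, and Tk1 is highest in KO DM (72.3 to 83.7 CPM).

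Among the 10 genes of origin recognition, loading and helicase activation, 9 rose in WT DM and 7 in KO GM, and Cdc6 moved most. Cdc6, the loader of the MCM ring, was at 23.0, 21.1 and 24.4 CPM in WT GM, 46.7, 45.2 and 46.5 in WT DM, 53.0, 55.1 and 46.6 in KO GM and 44.8, 44.8 and 37.8 in KO DM. Each WT GM library lay below all others, and the 3 KO DM libraries lay below the 3 KO GM libraries. It rose by 1.01 ± 0.10 in WT DM (adjusted p = 5.78e-08) and by 1.17 ± 0.10 in KO GM against WT GM (adjusted p = 1.2e-08). In KO cells it fell by 0.28 on the log2 scale in DM (SE 0.09, adjusted p = 0.0214). That fall had adjusted p values of 0.00453 to 0.142 over the alternatives and lost its call without KO GM replicate 1, KO GM replicate 2 or KO DM replicate 3. The Cdc6 interaction of -1.29 ± 0.14 (adjusted p = 4.02e-06) was the largest of the set in size.

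Cdt1, the partner of CDC6 in loading, rose by 0.40 ± 0.11 in WT DM (adjusted p = 0.00886) and by 0.48 ± 0.11 in KO GM (adjusted p = 0.00359). Orc6, a subunit of the origin recognition complex, rose by 0.45 ± 0.10 and 0.58 ± 0.10. Orc1, an ATP-binding subunit of the complex, read 7.09 to 9.48 CPM in WT GM and 8.27 to 13.0 CPM in the other groups, and was not called in any comparison. Mcm10, a helicase activator, rose by 0.99 ± 0.11 in WT DM and 0.63 ± 0.11 in KO GM. Cdc45, which binds the ring at activation, rose by 0.92 ± 0.12 and 0.72 ± 0.12. Without WT DM replicate 2, Cdt1 was no longer called in WT DM or in the interaction, and without WT GM replicate 2 the Cdc45 interaction was not called. The Orc6 interaction (-0.48 ± 0.13, adjusted p = 0.0276) was lost in 9 of 19 alternatives, 8 of which left out a single library.

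The 4 GINS subunits, which join CDC45 on the active helicase, all rose in WT DM, and Gins3 and Gins4 rose in KO GM. Gins3 read 11.4, 11.1 and 14.4 CPM in WT GM, 20.6, 21.7 and 23.2 in WT DM, 28.7, 28.3 and 24.6 in KO GM and 30.2, 31.4 and 31.0 in KO DM, with every KO library above every WT library. Gins4 likewise had every KO library (39.3 to 48.8 CPM) above every WT library (26.5 to 35.3 CPM). Gins3 rose by 1.14 ± 0.12 and Gins4 by 0.57 ± 0.09 in KO GM against WT GM. Gins2 did not separate the genotypes in GM (28.0 to 32.8 CPM in WT and 28.7 to 32.7 CPM in KO) and rose in DM in both, by 0.48 ± 0.10 in WT and 0.28 ± 0.10 in KO (adjusted p = 0.0304). Gins1 rose in WT DM, by 0.80 ± 0.23 (adjusted p = 0.00836), and its KO GM estimate of 0.62 ± 0.23 had an adjusted p of 0.06. The WT call of Gins1 was lost without WT GM replicate 1, and the KO call of Gins2 without KO GM replicate 2 or 3 or KO DM replicate 1 or 2. The Gins4 rise in WT DM (0.29 ± 0.10, adjusted p = 0.0231) was lost in 5 of 19 alternatives, among them leaving out WT GM replicate 1 or 2 or WT DM replicate 1 or 2. The Gins3 interaction (-0.64 ± 0.17, adjusted p = 0.0169) was lost in 6, leaving out WT GM replicate 1 or 2, WT DM replicate 3, KO GM replicate 1 or 2, or KO DM replicate 1.

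Of the sliding clamp and its loader all 5 genes rose in WT DM, 3 rose in KO GM, and 2 had a called interaction. Pcna, the clamp, read 144, 146 and 172 CPM in WT GM, 217, 211 and 214 in WT DM, 244, 205 and 199 in KO GM and 221, 220 and 203 in KO DM. Only WT GM stood apart, and the other 3 groups overlapped. Pcna rose by 0.47 ± 0.08 in WT DM (adjusted p = 0.000126) and by 0.49 ± 0.08 in KO GM (adjusted p = 0.000185), and its response in KO cells was -0.01 ± 0.08. Rfc5, a loader subunit, read 35.1, 36.6 and 36.2 CPM in WT GM, 62.7, 65.7 and 60.7 in WT DM, 49.5, 43.7 and 43.5 in KO GM and 56.9, 50.4 and 54.5 in KO DM. The 4 groups did not overlap with one another. It rose by 0.81 ± 0.09 in WT DM, by 0.34 ± 0.09 in KO GM and by 0.25 ± 0.08 in KO DM against KO GM (adjusted p = 0.0235). Of the other loader subunits, Rfc2, Rfc3 and Rfc4 rose by 0.42, 0.79 and 0.74 in WT DM, and of these Rfc3 rose in KO GM (0.40 ± 0.12, adjusted p = 0.0248). That Rfc3 call was lost on leaving out WT GM replicate 2 or KO GM replicate 1. The rises of Rfc3 and Rfc5 in KO DM were each lost without KO GM replicate 2, KO GM replicate 3 or KO DM replicate 1, and also without KO DM replicate 2 for Rfc3 and KO DM replicate 3 for Rfc5. The Pcna interaction (-0.48 ± 0.12, adjusted p = 0.0132) was lost without WT GM replicate 1 or 2 or KO GM replicate 1.

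Among polymerase and primase genes, 5 of 6 rose in WT DM and 4 of 6 in KO GM. Pole, the catalytic subunit of polymerase epsilon, read 13.7, 14.2 and 17.1 CPM in WT GM, 37.9, 36.1 and 33.6 in WT DM, 27.1, 27.8 and 25.4 in KO GM and 37.7, 38.4 and 35.8 in KO DM. KO GM lay between WT GM and the DM groups, which overlapped. Pole rose by 1.26 ± 0.11 in WT DM, by 0.83 ± 0.11 in KO GM and by 0.48 ± 0.10 in KO DM (adjusted p = 0.000537). Its partner Pole2 was called in no comparison, and its 12 values ran from 17.7 to 24.7 CPM. Prim1, the catalytic subunit of primase, read 20.3, 18.6 and 24.8 CPM in WT GM, 38.1, 36.5 and 35 in WT DM, 36.7, 33.5 and 29.1 in KO GM and 32.1, 32.4 and 31.7 in KO DM. Its response to DM was 0.78 ± 0.11 in WT (adjusted p = 1.04e-05) and -0.04 ± 0.11 in KO (adjusted p = 0.786), with an interaction of -0.83 ± 0.16 (adjusted p = 0.00205). Pola1, the catalytic subunit of polymerase alpha, rose by 0.95 ± 0.10 in WT DM and 0.65 ± 0.10 in KO GM. Its partner Pola2 rose by 0.60 ± 0.10 in WT DM and had an estimate of 0.29 ± 0.10 in KO GM (adjusted p = 0.0506). Pold1, the catalytic subunit of polymerase delta, rose by 0.66 ± 0.11 and 0.44 ± 0.11, and its KO GM call was lost without both GM replicate 3 libraries.

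The 4 genes of deoxynucleotide synthesis, which supply the building blocks of DNA, all rose in DM in both genotypes. Tk1, the thymidine kinase of the salvage pathway, read 21.1, 17.3 and 27.7 CPM in WT GM, 58.3, 59.3 and 62.2 in WT DM, 41.5, 41.3 and 34.9 in KO GM and 83.7, 78.9 and 72.3 in KO DM. The 4 groups did not overlap. Its response of 1.44 ± 0.12 in WT (adjusted p = 1.08e-08) was the largest of the set, and that in KO was 1.00 ± 0.12 (adjusted p = 5.36e-07). The Tk1 interaction of -0.44 ± 0.17 was not called (adjusted p = 0.109). Rrm2, the subunit of ribonucleotide reductase made in S phase, read 196, 203 and 243 CPM in WT GM, 286, 297 and 304 in WT DM, 212, 192 and 190 in KO GM and 262, 273 and 267 in KO DM. The medium separated these libraries and the genotype did not separate the GM groups. Rrm2 rose by 0.46 ± 0.08 in WT DM and by 0.43 ± 0.08 in KO DM, and the difference between these, -0.03 ± 0.11, was the smallest interaction of the set (adjusted p = 0.912).

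Rrm1, the large subunit of the same enzyme, read 85.7, 100 and 125 CPM in WT GM, 208, 226 and 217 in WT DM, 142, 117 and 112 in KO GM and 170, 163 and 163 in KO DM. The GM groups overlapped, and KO DM lay between GM and WT DM. Rrm1 rose by 1.07 ± 0.11 in WT DM and by 0.42 ± 0.11 in KO DM, with an interaction of -0.64 ± 0.15 (adjusted p = 0.0147). Tyms, thymidylate synthase, rose by 0.59 ± 0.10 in WT DM and 0.47 ± 0.10 in KO DM. Its KO GM estimate of 0.29 ± 0.10 (adjusted p = 0.0426) lost its call in 12 of 19 alternatives, 9 of which left out a single library, with adjusted p values of 0.0159 to 0.179.

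All 4 cyclin E and activator E2F genes rose in WT DM, and 3 of them, all but E2f2, rose in KO GM. Ccne2 read 14.9, 17.9 and 22.9 CPM in WT GM, 39.7, 49.6 and 46.4 in WT DM, 46.6, 34.4 and 33.3 in KO GM and 40.5, 44.9 and 42.1 in KO DM. WT GM was low and the other 3 groups overlapped. Ccne2 rose by 1.28 ± 0.15 in WT DM and 1.03 ± 0.15 in KO GM, and its interaction was -1.12 ± 0.20 (adjusted p = 0.00198). Ccne1 rose by 0.77 ± 0.12 in WT DM, 0.53 ± 0.12 in KO GM and 0.35 ± 0.11 in KO DM (adjusted p = 0.0171), and its interaction of -0.42 ± 0.16 was not called. The Ccne1 call in KO DM was lost on leaving out KO GM replicate 3 or KO DM replicate 2. E2f2, an activator E2F, read 18.9, 20.7 and 21.2 CPM in WT GM, 52.2, 48.6 and 52.2 in WT DM, 20, 21.4 and 18 in KO GM and 40.1, 31.8 and 31.2 in KO DM. The GM groups overlapped, and the KO DM libraries lay between them and WT DM. E2f2 rose by 1.33 ± 0.11 in WT DM (adjusted p = 3.66e-09) and 0.79 ± 0.11 in KO DM (adjusted p = 5.08e-06). The E2f2 interaction of -0.54 ± 0.16 (adjusted p = 0.0348) lost its call in 10 of 19 alternatives, 9 of which left out a single library, with adjusted p values of 0.008 to 0.122. Its relative E2f1 rose by 0.48 ± 0.10 in WT DM (adjusted p = 0.000935) and by 0.53 ± 0.10 in KO GM (adjusted p = 0.000638), where E2f2 had an estimate of -0.03 ± 0.12 (adjusted p = 0.881).

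All 6 genes of lagging strand processing, single-strand binding and chromatin assembly rose in WT DM and in KO GM, and all 6 had a called interaction. Chaf1b, a subunit of the CAF-1 complex that lays histones on new DNA, read 13.9, 12.6 and 16.8 CPM in WT GM, 40.0, 36.6 and 36.3 in WT DM, 35.4, 30.9 and 27.7 in KO GM and 38.5, 40.2 and 38.5 in KO DM. Every WT GM library lay below every library of the other groups. Chaf1b rose by 1.38 ± 0.12 in WT DM, by 1.11 ± 0.12 in KO GM and by 0.32 ± 0.11 in KO DM (adjusted p = 0.021), with an interaction of -1.06 ± 0.16 (adjusted p = 0.000233). Its call in KO DM was lost without KO GM replicate 2, KO GM replicate 3 or KO DM replicate 2. Its partner Chaf1a rose by 0.63 ± 0.09 and 0.57 ± 0.09 in the first pair of comparisons and had an estimate of -0.12 ± 0.09 in KO DM. Lig1, the ligase that joins Okazaki fragments, rose by 1.18 ± 0.10, 0.75 ± 0.10 and 0.47 ± 0.09. Fen1, the flap nuclease, rose by 0.79 ± 0.09 in WT DM and 0.52 ± 0.09 in KO GM. Rpa2, a subunit of the single-strand binding protein, rose by 0.65 ± 0.12 and 0.63 ± 0.12. Uhrf1, which carries DNA methylation through replication, rose by 0.83 ± 0.08 and 0.64 ± 0.08, and its interaction was -0.92 ± 0.12 (adjusted p = 2.77e-05).

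In differentiation medium few members were called different between the genotypes. Against WT DM, 4 genes were higher in KO DM (Mcm5, Gins3, Gins4 and Tk1) and 5 were lower (Mcm3, Rfc5, Rrm1, E2f2 and Uhrf1), where 13.6% of all tested genes were called higher and 17.4% lower. Both shares of members called, 9.76% and 12.2%, were below those backgrounds, and the median log2 fold change was -0.08. The groups did not overlap in 5 members with KO higher and in 12 with KO lower, where 21.3% and 26.2% of all tested genes did so. By this measure the share with KO higher was below its background and the share with KO lower was close to it. The rises were 0.43 ± 0.09 for Mcm5 (adjusted p = 0.000508), 0.50 ± 0.11 for Gins3 (adjusted p = 0.0017), 0.38 ± 0.09 for Gins4 (adjusted p = 0.00328) and 0.39 ± 0.11 for Tk1 (adjusted p = 0.0122), and all 4 had also risen in KO GM. The falls were -0.57 ± 0.10 for E2f2 (adjusted p = 0.000208), -0.39 ± 0.11 for Rrm1, -0.28 ± 0.08 for Uhrf1, -0.27 ± 0.08 for Mcm3 and -0.22 ± 0.08 for Rfc5 (adjusted p = 0.0443). The call of Rfc5 was lost in 16 of 19 alternatives, with adjusted p values of 0.0353 to 0.255. Lower members numbered 2 without WT DM replicate 1, WT DM replicate 2 or KO DM replicate 3, and 3 without KO DM replicate 2. Mcm3 lost its call on leaving out each of these 4 in turn, and Uhrf1 without WT DM replicate 1, WT DM replicate 2 or KO DM replicate 3. The 4 higher members were called in every alternative. The other 32 members were not called, which does not show that they were equal.

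**Figure D4:**
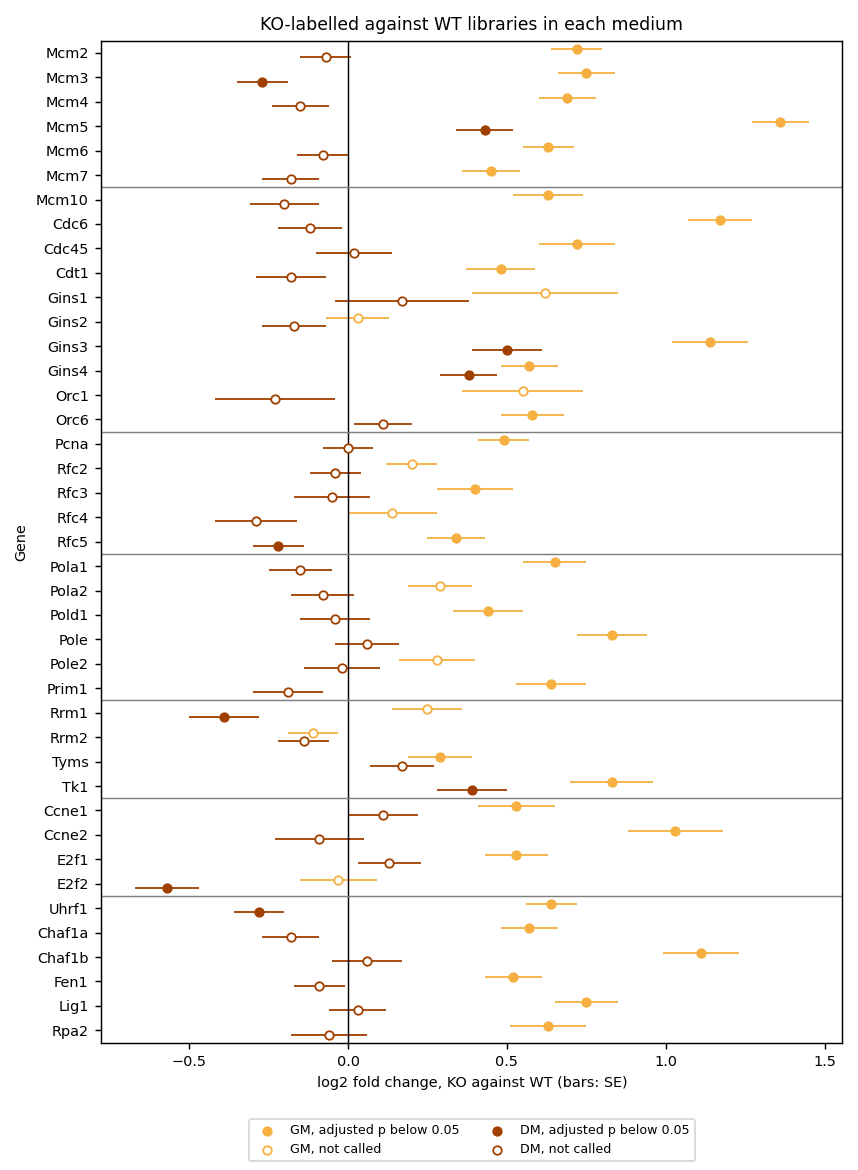
Log2 fold change of KO against WT (x axis, bars are SE) for each gene (y axis, grouped by role) in GM (orange) and in DM (brown), with filled points called at an adjusted p below 0.05. In GM 31 points are filled and lie above 0; in DM 4 filled points lie above 0 and 5 below.

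The members were set beside their neighbours on the chromosome, a comparison added after the values were seen. Neighbours were up to 20 genes with a mean of at least 5 CPM, 10 on each side, in the order of the GENCODE M21 annotation (build GRCm38, used for order only). Gins3, Mcm5 and Gins4 all lie on chromosome 8, where their log2 fold changes of 0.50, 0.43 and 0.38 in KO DM against WT DM stood beside neighbour medians of 0.41, 0.38 and 0.36. In GM the same genes had 1.14, 1.36 and 0.57, and their neighbours 0.38, 0.24 and 0.32. Tk1, on chromosome 11, had 0.39 in DM beside a neighbour median of 0.20. The median over all 894 genes of chromosome 11 at this level was 0.20 in GM and 0.20 in DM. Over the 596 such genes of chromosome 8 it was 0.07 in GM and 0.11 in DM. Orc6 on chromosome 8 and Cdc6 on chromosome 11 had 0.11 and -0.12 in DM, with neighbour medians of 0.29 and 0.28. Cdt1 and Gins2, also on chromosome 8, had -0.18 and -0.17 in DM, with neighbour medians of -0.09 and -0.01. For Mcm3, on chromosome 1, both values were -0.27. E2f2 and Rrm1, the members with the largest falls, had neighbour medians of -0.06 and -0.02. The part that a shift of the surrounding region or of the whole chromosome has in these results was not tested.

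**Figure D5:**
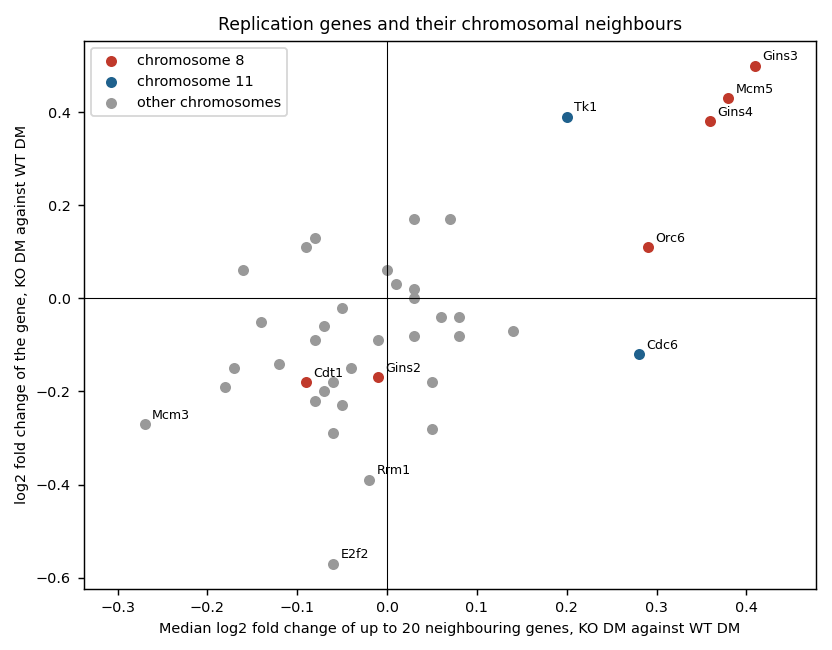
Log2 fold change of each member in KO DM against WT DM (y axis) against the median of up to 20 neighbouring genes in the same comparison (x axis), coloured by chromosome. Gins3, Mcm5 and Gins4 (red, chromosome 8) lie at the upper right with neighbour medians of 0.36 to 0.41; E2f2 and Rrm1 lie low with neighbours near 0.

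A further list of 59 replication and S phase genes outside the set, all tested, was counted in the same model. In WT DM, 32 rose (54.2%) and 4 fell (Orc5, Lrwd1, Pold4 and Pole4, 6.78%), beside 18.4% and 14.8% of all tested genes. In KO GM against WT GM 30 rose (50.8%) and Rnaseh2c fell (1.69%), beside 10.0% and 10.6% of all tested genes. In KO cells DM gave 11 higher (18.6%) and 10 lower (16.9%), shares below the 20.8% and 19.8% of all tested genes. KO DM against WT DM gave 2 higher (Asf1b and Rbl2) and 5 lower (Orc3, Orc4, Pold4, E2f8 and Rb1). These were 3.39% and 8.47% of the list, beside 13.6% and 17.4% of all tested genes. The interaction gave 0 higher and 22 lower (37.3%), beside 3.61% and 5.25% of all tested genes. Their median log2 fold changes were 0.48, 0.32, -0.02, -0.06 and -0.36 in that order. The 4 falls in WT DM became 2 without WT GM replicate 1, WT GM replicate 2 or WT DM replicate 1. In KO cells 7 rose without KO GM replicate 3, and 6 fell without KO GM replicate 1, KO GM replicate 2 or KO DM replicate 2. The 5 lower in KO DM against WT DM became 2 without WT DM replicate 3 or KO DM replicate 1 and 3 on leaving out WT DM replicate 1 or KO DM replicate 3. The largest rises in WT DM were Ccna2 (1.93 ± 0.19), the S phase cyclin, and Dscc1 (1.69 ± 0.22), a subunit of a PCNA clamp loader. Next came Clspn (1.48 ± 0.14), a checkpoint mediator at forks, and Asf1b (1.25 ± 0.12), a histone chaperone. In KO GM the largest rises were Dna2 (1.33 ± 0.18), Asf1b (1.24 ± 0.12), Atad5 (1.21 ± 0.15), the clamp unloader, and Clspn (0.96 ± 0.14). In KO DM against KO GM, Ccna2 rose by 1.63 ± 0.18, and Dscc1 (0.63 ± 0.20) and Chtf18 (0.63 ± 0.13) also rose. Pold4, a small subunit of polymerase delta, fell there by 1.17 on the log2 scale (SE 0.11) and in WT DM by 0.77 (SE 0.11). The largest interactions were Atad5 at -1.21 ± 0.21, E2f8, a repressor E2F, at -1.06 ± 0.17, Dscc1 at -1.06 ± 0.30 and Ticrr, an origin firing factor, at -1.01 ± 0.27. Over the alternatives the adjusted p ran from 0.00206 to 0.113 for the Dscc1 interaction and from 0.00352 to 0.0896 for that of Ticrr, and leaving out single libraries of each group ended these calls. The Dscc1 rise in KO DM was lost without KO GM replicate 2, KO GM replicate 3 or KO DM replicate 3.

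Mitosis and muscle genes moved with DM in both genotypes and are given because their levels changed beside those of the set. A panel of 12 mitosis genes had all 12 higher in DM in WT and in KO, beside 18.4% and 20.8% of all tested genes. In KO GM against WT GM 4 were higher (Top2a, Aurkb, Cdc20 and Birc5), beside 10.0% of all tested genes. The interaction was called for 1 (Cdk1, -0.50 ± 0.14), a share of 8.33% that was near the 5.25% of all tested genes called lower. In KO DM against WT DM 3 were higher (Ccnb2, Aurkb and Cdc20), beside 13.6%. Their adjusted p reached 0.176, 0.0548 and 0.0973 over the alternatives. Over the alternatives the Cdk1 interaction was lost in 8 of 19, each leaving out a single library (adjusted p 0.0014 to 0.108). The KO GM call of Birc5 was lost when WT GM replicate 1 or 2 or KO GM replicate 1 or 3 was left out, and that of Cdc20 when WT GM replicate 2 or KO GM replicate 1 or 2 was. The summed level of the panel was 205 ± 52.4 CPM in WT GM, 595 ± 63.8 in WT DM, 280 ± 16.5 in KO GM and 672 ± 13.2 in KO DM. The summed level of the 41 replication genes was 1917 ± 154, 3227 ± 76.8, 2798 ± 228 and 3075 ± 127 CPM in the same order. KO GM was thus nearer to the DM groups in the summed replication genes and nearer to WT GM in the summed mitosis genes. Among the roles of the set, deoxynucleotide synthesis alone went the other way. Its genes summed to 365 ± 51.7 CPM in WT GM, 610 ± 17.1 in WT DM, 391 ± 31.1 in KO GM and 553 ± 8.66 in KO DM. Mki67, a proliferation marker, was at 24.2 ± 10.6 CPM in WT GM and 37.5 ± 1.89 in KO GM (log2 fold change 0.63 ± 0.24, adjusted p = 0.106). Its WT GM libraries read 17.5, 18.6 and 36.4 CPM, and without WT GM replicate 3 the log2 fold change was 1.05 and called (adjusted p = 1.46e-07, with a range of 1.49e-08 to 0.263 over the alternatives). The 12 muscle genes were all higher in DM in both genotypes. All 12 were lower in KO GM than in WT GM, beside 10.6% of all tested genes. In KO DM against WT DM 10 of the 12 were called lower, beside 17.4% of all tested genes. Their interaction was called higher for 4, beside 3.61%. Myog, a differentiation factor, was at 163 ± 49.5 CPM in WT GM, 615 ± 37.3 in WT DM, 31.4 ± 14.6 in KO GM and 299 ± 15.0 in KO DM. Acta1, skeletal actin, was at 478 ± 177, 2713 ± 34.6, 140 ± 78.6 and 1818 ± 140 CPM. The part that these changes in state have in the replication results was not tested.

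Replicates of a group differed in the same direction across many members. WT GM replicate 3 lay above the other WT GM libraries in 31 of the 41 members, and 40.4% of all tested genes did so. KO GM replicate 1 was the highest of its group in 30 members (34.0% of all tested genes) and KO GM replicate 3 the lowest in 34 (35.4%). In the DM groups, KO DM replicate 3 was the lowest in 27 members (36.5%) and WT DM replicate 3 in 23 (32.0%). The members' median coefficient of variation was 10.3% in WT GM, 9.61% in KO GM, 5.29% in WT DM and 6.75% in KO DM. In WT GM replicate 3 the mitosis panel summed to 266 CPM, against 177 and 173 in the other WT GM libraries, and the muscle panel to 2643 CPM against 1877 and 2043. In KO GM replicate 3 the muscle panel summed to 610 CPM against 421 and 353, and the mitosis panel to 274 against 298 and 267. Without both of these replicate 3 libraries, 34 members rose in KO GM against WT GM and 32 had a lower interaction.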

How the data were processed

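RNA of C2C12 cells was sequenced in 12 libraries, 3 for each of 4 groups. The authors deposited 1 table of raw counts per Ensembl gene, with no normalization; 4 of its columns were empty and not used. The submitters' processing notes name the build GRCm39, DESeq2 1.40.2, R 4.3.1, RSEM 1.3.3 and STAR 2.7.1a, with no role for each. Which of them made the counts, the annotation release and whether strand was used are not given in these sources, so reads shared with overlapping genes could not be checked. Symbols were found for 52083 of 55416 genes.

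The analysis used edgeR 4.0.16 under R 4.3.3: filterByExpr by group (13250 genes), TMM scaling and 1 robust quasi-likelihood model of all 12 libraries with a mean per group. The 5 contrasts were tested 2-sided, with Benjamini-Hochberg adjustment over all 13250 genes and calls below 0.05. Values are CPM with SD (n = 3) and log2 fold changes with SE, the SE being the fold change divided by the square root of F. Library totals of 8821669 to 11536396 counts give a floor (3 counts) of 0.26 to 0.346 CPM, which covers counting error only. The labels call the replicates biological but name no separate cultures, so p values measure the spread between these libraries. The fit was tested on simulated data, and the outcome is not given here or used as support.

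Members, lists and the naming rule were chosen with earlier results of these data known. Values per library are given for the MCM core and, in each other role, for the called member with the largest change in WT DM, KO GM and the interaction, and for members that fell in KO DM. From the list of other replication genes, up to 4 called genes with the largest change are named per contrast. Gins3, Gins4, Rrm2 and the neighbour comparison were added after values were seen. RefSeq promoters are of build GRCm38.p6 and were used for sequence only. Lengths are those of GENCODE M21 principal transcripts. Alternatives were other scalings (RLE, total counts), no low-count filter, a filter of 1 CPM and 10 counts in 3 libraries, DESeq2 1.42.0, a replicate block, leaving out both GM replicate 3 libraries, and leaving out each library.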

Additional observations from a re-analysis of the deposited data

Results flagged for a closer look

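For 26 of the 41 genes the response to DM differed between KO and WT, by the interaction term of the edgeR model over all 13250 tested genes. Of all tested genes 5.25% were called lower and 3.61% higher. Values for the 26 genes are the KO response minus the WT response on the log2 scale, and each is lower in KO. In the MCM core they were -0.79 for Mcm2, -1.02 for Mcm3, -0.84 for Mcm4, -0.93 for Mcm5, -0.70 for Mcm6 and -0.63 for Mcm7. Among origin and helicase activation genes they were -1.29 for Cdc6, -0.84 for Mcm10, -0.70 for Cdc45, -0.66 for Cdt1, -0.64 for Gins3 and -0.48 for Orc6. The clamp and its loader gave -0.48 for Pcna and -0.56 for Rfc5. Polymerase and primase genes gave -0.83 for Prim1, -0.81 for Pola1 and -0.78 for Pole. The remaining values were -0.64 for Rrm1, -1.12 for Ccne2, -0.54 for E2f2, -1.06 for Chaf1b, -0.92 for Uhrf1, -0.75 for Chaf1a, -0.71 for Lig1, -0.69 for Rpa2 and -0.61 for Fen1. Of the 26 calls 20 held in every alternative, and those of Cdc45, Cdt1, Gins3, Orc6, Pcna and E2f2 did not. Between KO DM and WT DM, 32 of the 41 members were not called, and the members' median log2 fold change was -0.08.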

How the results depend on the processing

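Of 19 alternatives per comparison, none reversed a called result. Over them, members higher in WT DM numbered 37 to 40, members higher in KO GM 29 to 35, and members with a lower interaction 21 to 32. Calls held in every alternative for 36 of 39, 28 of 31 and 20 of 26 members in these comparisons, for 7 of 14 in KO DM against KO GM and for 6 of 9 in KO DM against WT DM. With DESeq2, 1 member fell in KO DM against KO GM and 2 other replication genes fell in WT DM. Without both GM replicate 3 libraries, 4 other replication genes were higher in KO DM against WT DM and 1 in the interaction, and over all genes the interaction had 1373 higher and 1336 lower calls, against 478 and 696. The cause of these moves was not tested.

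Leaving out each library in turn gave 7 to 15 members higher and 0 to 2 lower in KO DM against KO GM, and 2 to 5 lower in KO DM against WT DM. For the other replication genes it gave 2 to 4 lower in WT DM, 7 to 12 higher and 6 to 10 lower in KO DM against KO GM, 2 to 6 lower in KO DM against WT DM, and 0 to 1 higher in the interaction. All genes in the interaction ran from 293 to 969 higher and from 400 to 951 lower. With total counts as the scaling, the share of called genes that were higher moved from 40.7% to 57.8% in the interaction, and the members' interaction count was 24 lower and 0 higher.

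The replicate numbers come from the labels, which do not say that a number marks a shared culture or day. Deviations of same-numbered libraries correlated at -0.09 to 0.19 (median 0.045, 3 of 18 pairs over 0.1). Those of different numbers correlated at -0.26 to 0.21 (median -0.02, 1 of 36 pairs over 0.1). Of 36 matches of a library with another group, 26 were best with the same number, where 1 in 3 would be 12. These matches are not independent, because each pair of groups was counted from both sides and the deviations within a group are tied. The numbers may carry some shared variation, but the count cannot measure how much, and the correlations were low. The main model did not take them as pairing, because the labels do not state it. With the replicate block, members called were 39 higher in WT DM, 12 higher and 3 lower in KO DM against KO GM, 34 higher in KO GM, 4 higher and 5 lower in KO DM against WT DM, and 27 lower in the interaction.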

Other observations

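The pocket proteins, which hold E2F factors in check, were not alike, and are named here after their values were seen. Rbl2, which encodes p130, read 94.6, 93.5 and 105 CPM in WT GM, 92.6, 108 and 106 in WT DM, 154, 150 and 176 in KO GM and 187, 204 and 206 in KO DM, with every KO library above every WT library. It was higher in KO by 0.71 ± 0.08 in GM (adjusted p = 8.76e-07) and by 0.96 ± 0.08 in DM (adjusted p = 5.5e-09). Rbl2 lies on chromosome 8 between Heatr3 and Ndrg4, as does Gins3, and the median of its 20 neighbours was 0.67 in GM and 0.64 in DM. The part that this stretch has in the values of Rbl2 and Gins3 was not tested. Rbl1, which encodes p107, rose by 0.62 ± 0.11 in WT DM and by 0.64 ± 0.11 in KO GM. Rb1 rose in DM in both genotypes, by 0.89 ± 0.10 in WT and 0.48 ± 0.10 in KO, and read 65.9 to 73.0 CPM in WT DM and 50.4 to 59.7 CPM in KO DM. Its KO DM against WT DM value of -0.33 ± 0.10 (adjusted p = 0.0147) was not called without WT DM replicate 3, KO DM replicate 1 or KO DM replicate 3.

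The E2F genes outside the set are given next. E2f7 and E2f8, the atypical repressors, rose by 0.97 ± 0.13 and 1.15 ± 0.12 in WT DM and by 0.85 ± 0.13 and 0.52 ± 0.13 in KO GM. In KO DM against WT DM, E2f8 was lower by -0.54 ± 0.12 (adjusted p = 0.00126), and Asf1b was higher by 0.58 ± 0.11 (adjusted p = 0.000313). E2f3, E2f4 and E2f6 were called in no comparison. E2f5 fell in KO DM against KO GM, by 0.42 on the log2 scale (SE 0.16, adjusted p = 0.0389). That call was lost in 8 of 19 alternatives (adjusted p 0.0209 to 0.215), among them leaving out WT GM replicate 1 or any single KO library except KO GM replicate 3, and the value was -0.28 without KO DM replicate 1. Members with an E2F word in the RefSeq window had a median log2 fold change of 0.81 in WT DM and -0.70 in the interaction (15 genes). Those without, among them E2f1, had 0.74 and -0.56 (19 genes), with ranges that overlapped.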
